A study of Mus musculus with 12 samples.

Results

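The 37 genes described here mark astrocytes or are switched on when astrocytes become reactive, and they were taken by symbol from 55487 genes listed for mouse striatum. Of them, 22 were counted as homeostatic genes (glutamate and ion transport, water channels, gap junctions, lipid carriers and identity factors) and 12 as reactive genes (intermediate filaments, acute-phase proteins, cytokine receptors and surface proteins). The remaining 3, Sparc, Sparcl1 and Id3, were counted with neither class. All 37 passed the filter on low counts, as did 21309 genes in all. Poly(A) RNA of 12 mice was sequenced, 3 mice in each of 4 groups. The cGAS-KO;HD group were double mutants that carried the Q175DN huntingtin knock-in allele and lacked cGAS. The HD group carried the neo-deleted zQ175 knock-in allele heterozygously, an expanded CAG repeat in mouse Htt that models Huntington's disease. Mice of the cGAS-KO group were without cGAS, the sensor of cytosolic DNA that signals through STING. The WT group were C57BL/6J mice. The labels give no age, sex or litter, and no zygosity of the knock-in allele in the double mutants. The series asks what loss of cGAS does in knock-in mice, so each gene was compared between knock-in and non-knock-in mice with and without cGAS, and between cGAS genotypes.

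Astrocytes clear synaptic glutamate through the transporters Slc1a2 (GLT-1) and Slc1a3 (GLAST), turn it into glutamine with glutamine synthetase (Glul), and buffer potassium and water at their endfeet. Reactive astrocytes raise the filament proteins Gfap and Vim and secreted proteins such as Serpina3n and Lcn2. Loss of glutamate uptake by striatal astrocytes is a known feature of Huntington's disease models. In bulk tissue, fewer cells of a type and less RNA per cell cannot be told apart, and several of these genes are also expressed outside astrocytes, for instance Apoe and Vim in microglia and vessels, Cp and Clu in choroid plexus or ependyma, and S100b in the oligodendrocyte lineage.

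Libraries held 59195327 to 72765623 counts. Htt, the knock-in gene, averaged 135 ± 8.19 CPM (counts scaled to library size) in cGAS-KO;HD striatum, 139 ± 7.48 CPM in HD, 170 ± 13.2 CPM in cGAS-KO and 173 ± 5.27 CPM in WT (SD, n = 3 each). Cgas averaged 1.03 ± 0.203 CPM in cGAS-KO;HD, 1.15 ± 0.0963 in HD, 0.777 ± 0.177 in cGAS-KO and 1.41 ± 0.129 in WT, and counts over a whole gene cannot check a deletion of part of it. A pair of libraries stood apart. In WT replicate 1, choroid plexus and ependymal markers summed to 1972 CPM, against 188 and 116 CPM in the other WT libraries, and cortical neuron markers to 280 CPM, against 774 and 892 CPM. In cGAS-KO replicate 3, mitochondrially encoded genes took 11.5% of counts, above every other library, and cortical markers summed to 1279 CPM, against 485 and 338 CPM in its group. Xist, the inactive X chromosome's RNA, was high in 2 of 3 libraries of both knock-in groups and in 1 of 3 of both others, namely the same WT replicate 1 and cGAS-KO replicate 3. Results that rest on these libraries are also given without them. Leaving them out removes every high-Xist library from the groups without the knock-in, so the knock-in and high Xist are then partly tied. Striatal projection neuron markers were present in every library, and their sum was lower in every knock-in library than in the others. At an adjusted p under 0.05 in edgeR, 12 of 14 were called lower in HD against WT, beside 4.1% of all genes called. In cGAS-KO;HD against cGAS-KO 11 of 14 were called lower, beside 3.96% of all genes.

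The members covered a wide range of levels. On a per-length scale (CPM per kb of exon, mean over 12 libraries), the glycoprotein Sparcl1 was highest at 737, followed by the lipid carrier Apoe at 710, Glul at 358, the cytoplasmic protein Ndrg2 at 244, the chaperone Clu at 240 and the brain aldolase Aldoc at 201. The glutamate transporter Slc1a2 stood at 137 and its relative Slc1a3 at 66.1. Of the reactive genes only Gfap was near that range, at 68.7 CPM per kb. The iron carrier Lcn2 and the metalloreductase Steap4 were the lowest members, at 0.0936 and 0.0808 CPM per kb. In plain CPM, 18 members averaged at least 100, 11 lay between 10 and 100, and 8 were under 10, all 8 of them reactive.

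**Figure D1:**
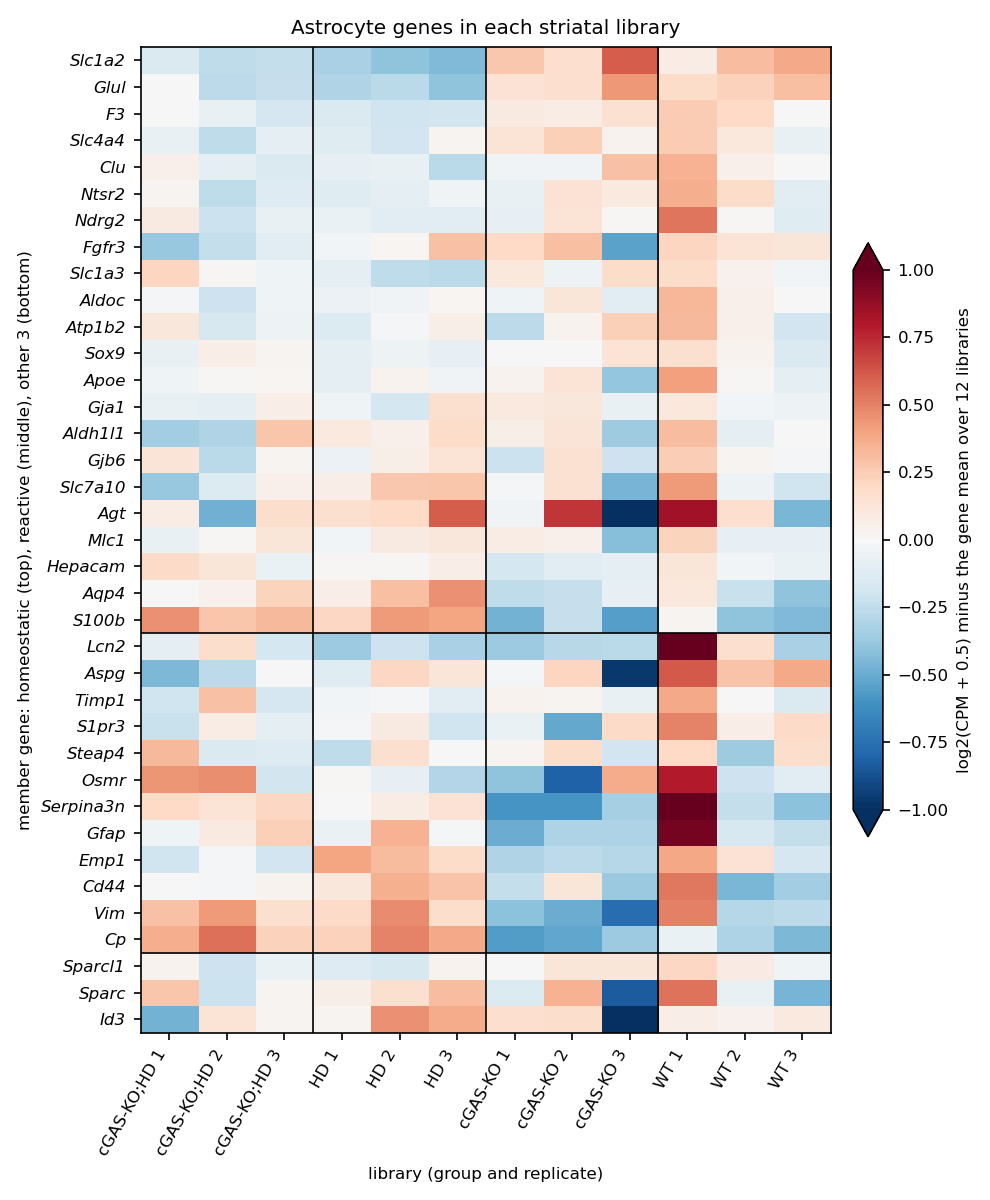
Colour shows, for each of 37 genes (rows) and 12 libraries (columns), log2(CPM + 0.5) minus the gene's mean over all libraries, on a scale cut at 1 and -1. Slc1a2 and Glul are blue in all knock-in libraries (the left 6 columns, except Glul near 0 in cGAS-KO;HD replicate 1), S100b and Cp are red there, and WT replicate 1 is red in most rows.

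With cGAS present, the knock-in lowered the glutamate-handling pair Glul and Slc1a2 and raised the calcium-binding protein S100b and the copper-carrying ferroxidase Cp. The procoagulant receptor F3, tissue factor, was also lower. These 5 of 37 members (13.5%) passed an adjusted p under 0.05 in HD against WT, where 4.1% of all genes tested did, 1.43% higher and 2.67% lower. By class, 4 of 22 homeostatic members were called, 3 lower and 1 higher, and 1 of 12 reactive members, higher.

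Glul had 949, 968 and 884 CPM in HD striatum, against 1330, 1370 and 1440 CPM in WT. Slc1a2 had 1400, 1320 and 1290 CPM in HD, against 1840, 2170 and 2270 CPM in WT. Every HD library lay below every WT library for both, an order without overlap that 27.7% of all genes showed in one direction or the other and 8 of 37 members. The log2 change of Glul was -0.56 ± 0.10 (SE, adjusted p = 0.0088) and that of Slc1a2 -0.65 ± 0.12 (adjusted p = 0.00943), 0.676 and 0.639 times the WT level. F3 was at 38.0, 36.5 and 36.9 CPM in HD, against 50.1, 48.3 and 42.1 CPM in WT, a log2 change of -0.34 ± 0.08 (adjusted p = 0.0295) with no overlap between the groups. Cortical neuron markers had a median log2 change of -2.1, with 0 of 10 called, beside 4.1% of all genes. Their sums were 258 to 298 CPM in HD and 280 to 892 CPM in WT, which overlapped. The part of these markers in the Glul, Slc1a2 and F3 values was not tested.

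S100b had 210, 245 and 240 CPM in HD striatum, against 186, 138 and 134 CPM in WT, a log2 change of 0.61 ± 0.13 (adjusted p = 0.0184). Cp had 19.2, 23.2 and 21.3 CPM in HD, against 15.5, 13 and 11.8 CPM in WT, a log2 change of 0.66 ± 0.12 (adjusted p = 0.0107). For both genes the groups did not overlap, and WT replicate 1 was the highest WT library. Choroid plexus and ependymal markers, whose cells also make Cp, summed to 946, 2073 and 327 CPM in HD, against 1972, 188 and 116 CPM in WT. Within HD, Cp was highest in replicate 2 and within WT in replicate 1, the libraries with the most of these markers in their groups, and the part of the markers in Cp was not tested. Of the markers of cells that also make S100b, 1 of 12 oligodendrocyte markers was called higher and 1 lower. Of 8 precursor markers 1 was called lower, where 4.1% of all genes were called. Their median log2 changes were 0.07 and 0.125. For the averaged knock-in 2 oligodendrocyte and 3 precursor markers were called higher, and 5 and 1 lower, beside 13.2% of all genes. The part of these markers in S100b was not tested.

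Glul, Slc1a2, S100b and Cp were the only members called in HD against WT, in cGAS-KO;HD against cGAS-KO and in the average of both, so their promoter windows are shown. Each runs from 250 bases before to 50 after the RefSeq start on the plus strand of GRCm38.p6: Glul chr1:153899679-153899978, Slc1a2 chr2:102706188-102706487, S100b chr10:76253586-76253885 and Cp chr3:19956804-19957103. The windows of the pair that fell and of the pair that rose are set one after the other, and capitals mark matches of the motifs named next.
Glul: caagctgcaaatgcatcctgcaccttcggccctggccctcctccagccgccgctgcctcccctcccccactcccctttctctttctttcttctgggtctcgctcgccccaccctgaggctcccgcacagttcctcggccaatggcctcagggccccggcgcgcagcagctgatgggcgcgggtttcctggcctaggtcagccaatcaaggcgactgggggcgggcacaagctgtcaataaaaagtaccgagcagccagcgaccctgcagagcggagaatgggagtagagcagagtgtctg
Slc1a2: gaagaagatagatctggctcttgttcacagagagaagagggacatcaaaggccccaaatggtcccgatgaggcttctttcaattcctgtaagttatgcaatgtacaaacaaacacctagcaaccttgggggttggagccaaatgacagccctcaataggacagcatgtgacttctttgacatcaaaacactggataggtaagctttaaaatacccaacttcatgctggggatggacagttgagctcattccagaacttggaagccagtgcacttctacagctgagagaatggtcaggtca
S100b: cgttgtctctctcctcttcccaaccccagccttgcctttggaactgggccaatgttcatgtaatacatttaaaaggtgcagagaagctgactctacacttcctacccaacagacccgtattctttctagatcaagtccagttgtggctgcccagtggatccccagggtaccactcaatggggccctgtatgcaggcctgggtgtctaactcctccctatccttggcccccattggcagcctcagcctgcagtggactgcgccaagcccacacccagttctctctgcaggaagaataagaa
Cp: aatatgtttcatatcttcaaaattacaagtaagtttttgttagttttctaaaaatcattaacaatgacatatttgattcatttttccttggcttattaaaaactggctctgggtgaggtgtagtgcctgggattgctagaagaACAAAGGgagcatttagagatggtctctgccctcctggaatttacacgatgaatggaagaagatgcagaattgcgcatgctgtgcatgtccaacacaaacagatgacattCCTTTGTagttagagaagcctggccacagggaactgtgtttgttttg
Both strands were searched for TTCNNNGAA, a STAT-type site, for the full nuclear factor I palindrome, and for ACAATGG and ACAAAGG, 2 SOX-type sites, and no matches overlapped in these windows. The Cp window held ACAAAGG 2 times, once on each strand, and the other 3 windows held none of these motifs. ACAAAGG was in 5.88% of all 32851 windows and in those of 3 of 32 members with a window, Apoe, Cp and Hepacam. TTCNNNGAA was in 8.3% of all windows and in those of 7 members, Agt, Aldoc, Emp1, Gfap, Ntsr2, Slc1a3 and Steap4. ACAATGG was in 3.66% and the palindrome in 0.0365% of all windows, and neither was in a member's. The GC share was 64.3% in the Glul window, 45.7% in that of Slc1a2, 53.7% in that of S100b and 38.3% in that of Cp, against a median of 52.7% over all windows. The Slc1a2 window lies inside the gene as GENCODE M21 draws it, since that annotation also has a start further upstream.

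The other homeostatic members were not called in HD against WT. Aqp4, the endfoot water channel, had 170, 200 and 223 CPM in HD, against 175, 139 and 123 CPM in WT, and its log2 change of 0.44 ± 0.13 missed the threshold (adjusted p = 0.078). Thalamic, septal and pallidal neuron markers summed to 656, 896 and 1203 CPM in HD, against 829, 492 and 352 CPM in WT. Within both groups that is the order of Aqp4, while within cGAS-KO;HD and within cGAS-KO the orders differed. The part of these markers in Aqp4 was not tested. Slc1a3 had 527, 471 and 465 CPM in HD, against 637, 577 and 550 CPM in WT, a log2 change of -0.27 ± 0.10 (adjusted p = 0.149) although the groups did not overlap. Clu was likewise below WT in every HD library, with a log2 change of -0.28 ± 0.12 (adjusted p = 0.229). Identity genes were close to level. Aldh1l1, the folate enzyme used as a pan-astrocyte marker, had 53.3, 51.6 and 56.5 CPM in HD, against 61.6, 46.8 and 49.7 CPM in WT. Gja1, the gap junction protein connexin 43, had 166, 151 and 191 CPM in HD, against 184, 168 and 165 CPM in WT. The transcription factor Sox9 had 34.4, 35.3 and 34.6 CPM in HD, against 41.0, 37.6 and 33.0 CPM in WT. The groups overlapped for all 3, with log2 changes of 0.03, -0.03 and -0.10. Over the 22 homeostatic members the median log2 change was -0.10, beside 0.01 over all genes, with 15 below and 7 above 0.

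**Figure D2:**
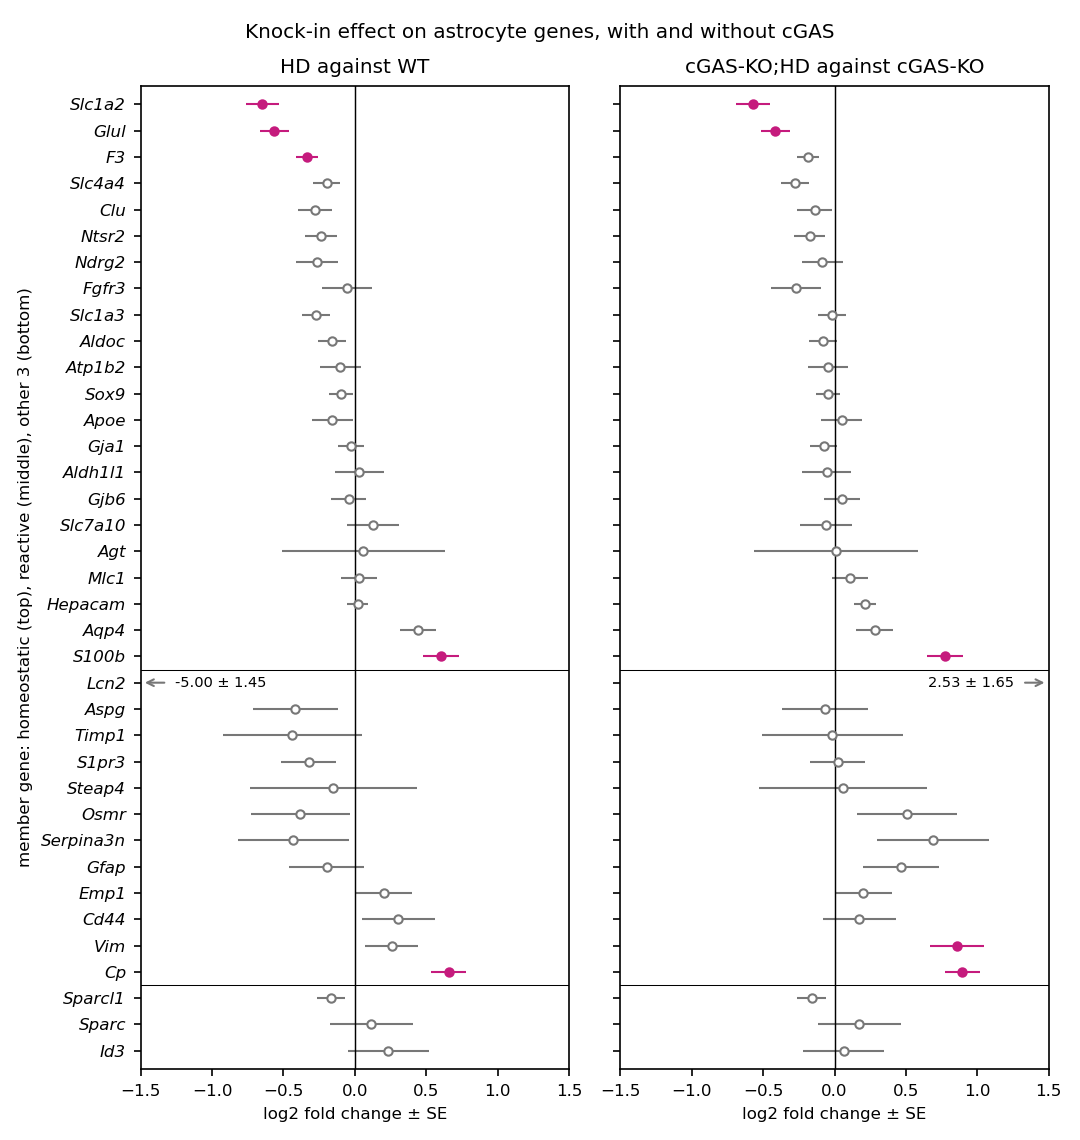
Points show each gene's log2 fold change with its standard error in HD against WT (left) and in cGAS-KO;HD against cGAS-KO (right), filled where the adjusted p was under 0.05. Lcn2 lies beyond the axis and is written as a value. Slc1a2, Glul, S100b and Cp are filled on both sides, and most reactive points lie left of 0 on the left side and right of 0 on the right side.

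In the reactive class the HD against WT values depended on WT replicate 1. Gfap, the main astrocyte filament, had 267, 356 and 276 CPM in HD, against 544, 250 and 237 CPM in WT. Serpina3n, a secreted protease inhibitor, had 35.8, 37.5 and 39.4 CPM in HD, against 94.9, 30.1 and 26.7 CPM in WT. For both genes the highest library was WT replicate 1, and the other 2 WT libraries were below all HD libraries. Vim, the filament vimentin, had 41.8, 50.9 and 41.5 CPM in HD, against 52.0, 30.0 and 30.4 CPM in WT, the same order. With all libraries the log2 change was -0.20 ± 0.27 for Gfap (adjusted p = 0.757), -0.43 ± 0.39 for Serpina3n (adjusted p = 0.621) and 0.26 ± 0.19 for Vim (adjusted p = 0.516). The median over the 12 reactive members was -0.26, with 8 below and 4 above 0.

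Without WT replicate 1, Serpina3n was higher in HD by a log2 change of 0.39 ± 0.10 (adjusted p = 0.0343), Vim by 0.55 ± 0.13 (adjusted p = 0.0244) and Cd44, a hyaluronan receptor, by 0.73 ± 0.19 (adjusted p = 0.0382). Gfap was then at 0.28 ± 0.13 (adjusted p = 0.218), and Aqp4 passed at 0.58 ± 0.12 (adjusted p = 0.0124). The reactive median became 0.20, with 9 of 12 above 0, and 9 of 37 members were called, while 7.02% of all genes were. All 5 members called with 12 libraries were among these 9. WT then had no high-Xist library, while HD had. Without WT replicate 2 the call was Glul alone (1.29% of all genes), and without WT replicate 3 the calls were F3 and Lcn2 (1.13%). Without HD replicate 2 they were Glul and Slc1a2 (1.21% of all genes), and without HD replicate 3 Glul, Slc1a2 and Cp (1.48%).

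WT replicate 1 was the highest of 12 libraries for 9 of 12 reactive and 14 of 22 homeostatic members, and the highest of its group for all 12 reactive members. Relative to the mean of WT replicates 2 and 3, its median ratio was 1.88 over the reactive members and 1.23 over the homeostatic members. The reactive members summed to 741 CPM in it, against 343 and 327 CPM in the other WT libraries and 385 to 490 CPM in HD. Microglia markers were also highest there, at 698 CPM against 569 and 540 CPM in the other WT libraries. HD replicate 2 had more choroid plexus and ependymal marker RNA (2073 CPM) and 490 CPM of reactive members. The part of these markers in the reactive values was not tested.

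**Figure D3:**
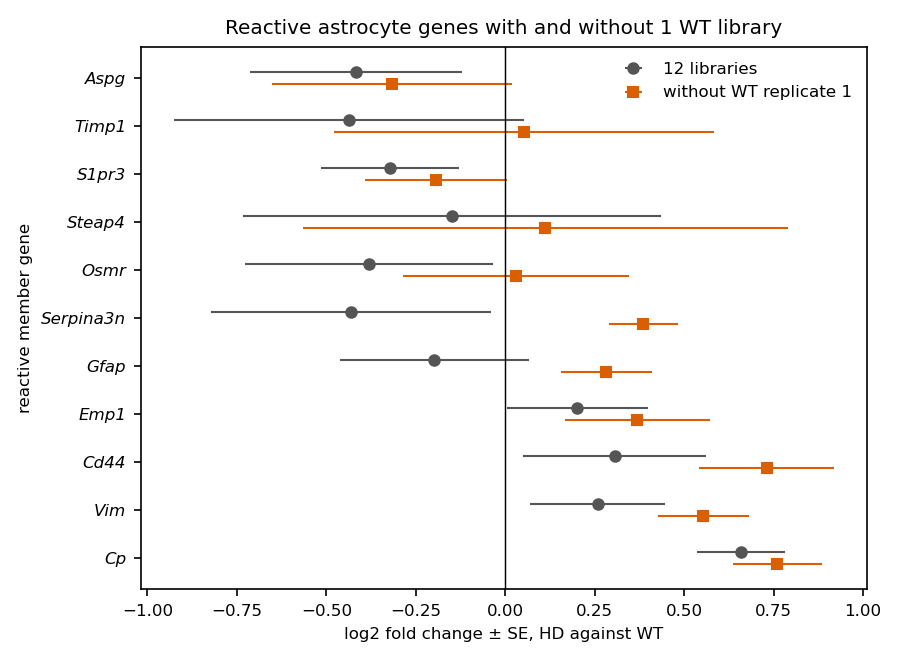
Log2 fold change in HD against WT with its standard error is drawn for 11 reactive genes, with all 12 libraries (circles) and without WT replicate 1 (squares). Serpina3n and Gfap lie left of 0 with all libraries and right of it without that library. Lcn2 is not drawn.

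Lcn2 had too few counts to read. It had 0, 4 and 1 counts in HD, against 146, 13 and 1 counts in WT, so that WT replicate 1 held most of the WT counts. Its log2 change of -5.0 ± 1.45 had an adjusted p of 0.0825. Aspg, an asparaginase, had 2.44, 3.19 and 2.98 CPM in HD, against 4.41, 3.41 and 3.66 CPM in WT, a log2 change of -0.42 ± 0.30 (adjusted p = 0.497) without overlap. S1pr3, a sphingosine-1-phosphate receptor, was at -0.32 ± 0.19 (adjusted p = 0.402). Emp1, a membrane protein, Osmr, the oncostatin M receptor, Steap4 and the metalloprotease inhibitor Timp1 had log2 changes of 0.20, -0.38, -0.15 and -0.44, each with a standard error as large or nearly so.

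Without cGAS the same 4 genes were called again in cGAS-KO;HD against cGAS-KO, and Vim joined them. Glul and Slc1a2 were lower, and S100b, Cp and Vim were higher. These 5 of 37 members (13.5%) compare with 3.96% of all genes, 1.44% higher and 2.52% lower. By class they were 3 of 22 homeostatic members, 2 lower and 1 higher, and 2 of 12 reactive members, both higher. The comparison shares no library with HD against WT, though both were taken from 1 fit. In 16 other fits (other scalings, filters, tests, terms or libraries), Vim lost its call in 8, Glul in 6 and Slc1a2 in 4. S100b and Cp kept theirs in all 16.

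Glul had 1170, 976 and 994 CPM in cGAS-KO;HD striatum, against 1290, 1310 and 1580 CPM in cGAS-KO, a log2 change of -0.41 ± 0.10 (adjusted p = 0.0383). Slc1a2 had 1580, 1470 and 1480 CPM in cGAS-KO;HD, against 2110, 1960 and 2660 CPM in cGAS-KO, a log2 change of -0.57 ± 0.12 (adjusted p = 0.017). For both genes the groups did not overlap, and cGAS-KO replicate 3 was the highest of all 12 libraries. Cortical neuron markers summed to 485, 338 and 1279 CPM in cGAS-KO, against 315 to 434 CPM in cGAS-KO;HD. Their part in these values was not tested. S100b had 250, 221 and 228 CPM in cGAS-KO;HD, against 131, 155 and 124 CPM in cGAS-KO, a log2 change of 0.77 ± 0.13 (adjusted p = 0.00477). Cp had 21.1, 24.1 and 19.2 CPM in cGAS-KO;HD, against 10.9, 11.2 and 12.5 CPM in cGAS-KO, the largest change of a called member here at 0.90 ± 0.12 (adjusted p = 0.00162). Both were well clear of the other group. Oligodendrocyte and precursor markers had median log2 changes of 0.10 and 0.26 here. In each list 1 was called higher and 1 lower, beside 3.96% of all genes, and their part in S100b was not tested. Choroid plexus and ependymal markers summed to 1200, 1254 and 148 CPM in cGAS-KO;HD, against 894, 975 and 245 CPM in cGAS-KO. Within cGAS-KO;HD, Cp was highest in the library with the most of them and lowest in that with the fewest, while within cGAS-KO it was highest in the library with the fewest. Their part in Cp was not tested.

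Vim had 44.9, 49.3 and 41.0 CPM in cGAS-KO;HD, against 27.4, 25.8 and 21.4 CPM in cGAS-KO, a log2 change of 0.86 ± 0.19 (adjusted p = 0.0275). Gfap had 271, 298 and 329 CPM in cGAS-KO;HD, against 198, 226 and 225 CPM in cGAS-KO, and Serpina3n 41.0, 39.2 and 41.2 CPM against 23.5, 23.5 and 28.2 CPM. Neither of these 2 overlapped between the groups. Their log2 changes were 0.47 ± 0.27 (adjusted p = 0.408) and 0.69 ± 0.39 (adjusted p = 0.415) in the fit over 12 libraries. Gfap passed the threshold in 1 of the other fits and Serpina3n in 2. Of the 12 reactive members 10 were above 0 and 2 below, with a median log2 change of 0.335 beside 0.00 over all genes. Microglia markers had a median log2 change of 0.32 and fibroblast and meningeal markers one of 0.315 in this comparison, with no member of either list called, and their part in the reactive values was not tested.

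When WT replicate 1 and cGAS-KO replicate 3 were both left out, 10 members were called in cGAS-KO;HD against cGAS-KO, and 8.31% of all genes. That fit holds high-Xist libraries in the knock-in groups only, so the knock-in and high Xist are partly tied in it. Serpina3n was then at 0.77 ± 0.08 (adjusted p = 6.95e-05), Gfap at 0.49 ± 0.13 (adjusted p = 0.0402) and Osmr at 0.94 ± 0.21 (adjusted p = 0.0151). Of homeostatic members, the bicarbonate transporter Slc4a4 at -0.34 ± 0.08 (adjusted p = 0.0215) and the growth factor receptor Fgfr3 at -0.50 ± 0.10 (adjusted p = 0.00692) joined those that were lower. The same fit called 9 members in HD against WT, where 16.5% of all genes were called. With all libraries and a term for high Xist, 3 members remained called in cGAS-KO;HD against cGAS-KO, beside 3.02% of all genes.

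**Figure D4:**
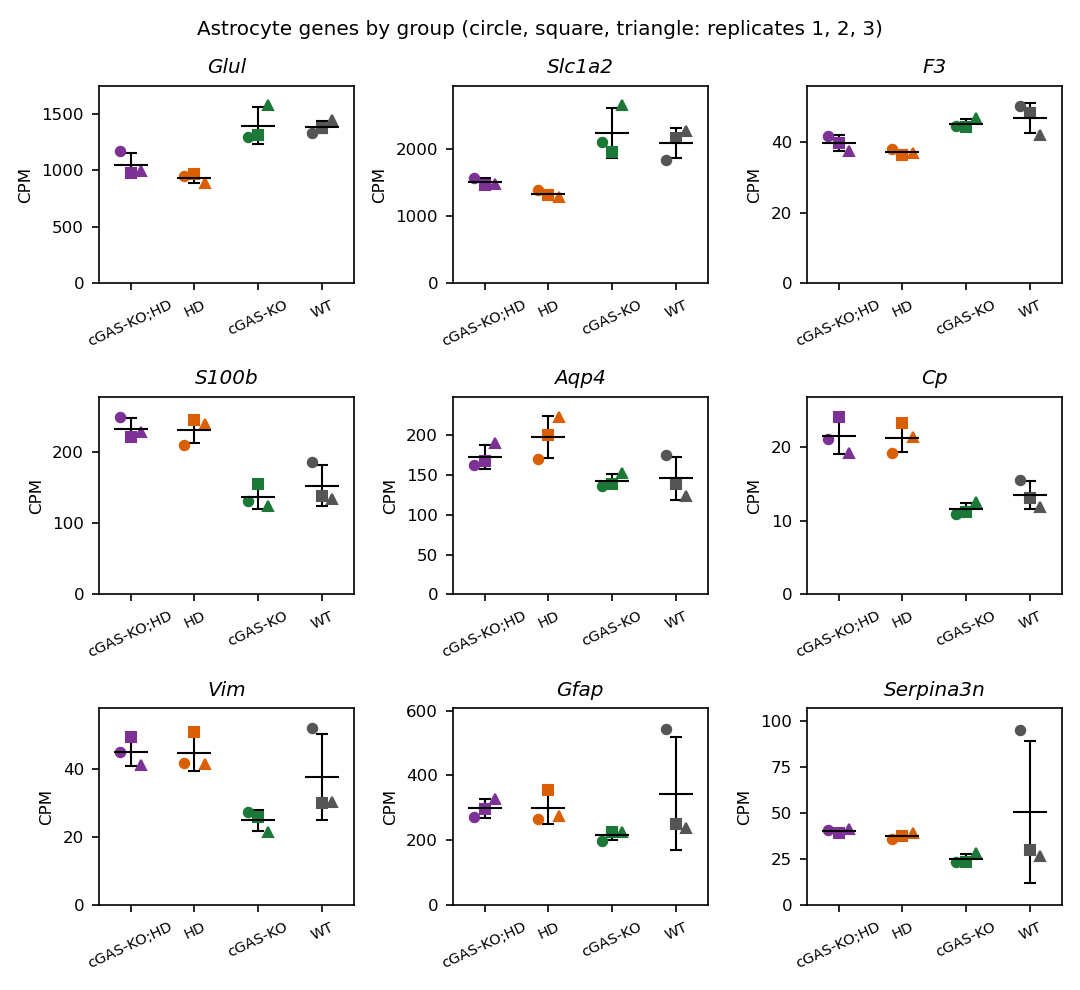
CPM of 9 genes is plotted for each library (symbols) with the group mean and SD (bars), groups running from cGAS-KO;HD to WT. Glul, Slc1a2 and F3 are lower, and S100b and Cp higher, in the knock-in groups than in the groups beside them, and WT replicate 1 (grey circle) is above the other WT libraries for Vim, Gfap and Serpina3n.

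Among other homeostatic members, Slc4a4 had a log2 change of -0.28 ± 0.10 (adjusted p = 0.143), the adhesion protein Hepacam one of 0.21 ± 0.08 (adjusted p = 0.157) and F3 one of -0.19 ± 0.08 (adjusted p = 0.219). None of these 3 overlapped between cGAS-KO;HD and cGAS-KO, F3 having 41.8, 39.9 and 37.4 CPM against 44.6, 44.2 and 46.8 CPM. Aqp4 had 162, 167 and 190 CPM in cGAS-KO;HD, against 136, 138 and 153 CPM in cGAS-KO, a log2 change of 0.28 ± 0.13 (adjusted p = 0.28), again without overlap. Over 21309 genes 21.5% had no overlap between these groups, and of the 37 members 13 had none. Slc1a3 had 651, 565 and 546 CPM in cGAS-KO;HD, against 603, 543 and 636 CPM in cGAS-KO. Gja1 had 162, 161 and 179 CPM in cGAS-KO;HD, against 183, 185 and 162 CPM in cGAS-KO. Both overlapped, as did Aldh1l1, at 38.9, 40.4 and 60.3 CPM against 51.8, 54.5 and 38.7 CPM. Sox9 had 34.7, 38.3 and 37.4 CPM in cGAS-KO;HD, against 36.8, 36.6 and 40.4 CPM in cGAS-KO. The homeostatic median log2 change was -0.06, with 15 of 22 members below 0.

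Averaged over both cGAS genotypes, the knock-in effect was called for 8 of 37 members (21.6%), where 13.2% of all genes were called, 5.59% higher and 7.63% lower. This average uses the same libraries as both comparisons above and adds no animals. Glul, Slc1a2, F3 and Slc4a4 were lower, with log2 changes of -0.49, -0.61, -0.26 and -0.24. S100b, Aqp4, Cp and Vim were higher, with log2 changes of 0.69, 0.36, 0.78 and 0.56. Slc4a4 had 255, 225 and 251 CPM in cGAS-KO;HD, against 294, 317 and 275 CPM in cGAS-KO. It had 246, 235 and 273 CPM in HD, against 320, 289 and 255 CPM in WT. Slc4a4 passed narrowly (adjusted p = 0.0377) and fell short in 9 of 12 fits that left out 1 library. Of the uncalled members the neurotensin receptor Ntsr2 came nearest, at -0.20 ± 0.08 (adjusted p = 0.104), followed by Clu at -0.21 ± 0.09 (adjusted p = 0.127), Sparcl1 (adjusted p = 0.148) and Hepacam at 0.12 ± 0.05 (adjusted p = 0.187). Among reactive members Emp1, Cd44 and Aspg were the nearest uncalled ones, at 0.20 ± 0.14, 0.24 ± 0.18 and -0.24 ± 0.21. The median was -0.07 over homeostatic and 0.10 over reactive members.

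Leaving out WT replicate 1, the average was called for 10 members, beside 16.5% of all genes, with Gfap at 0.37 ± 0.09 (adjusted p = 0.0116), Serpina3n at 0.53 ± 0.07 (adjusted p = 0.000239) and Cd44 at 0.45 ± 0.13 (adjusted p = 0.0301) joining the higher ones. The reactive median was then 0.27. Without both libraries that stood apart 13 members were called, 8 higher and 5 lower, beside 21.2% of all genes. The 5 lower ones were all homeostatic, and of the 8 higher ones 6 were reactive and 2, S100b and Aqp4, homeostatic.

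In knock-in striatum, loss of cGAS changed no member at the threshold. In cGAS-KO;HD against HD 0 of 37 members were called by edgeR, DESeq2 or limma-voom, where edgeR called 0.00469% of all genes, limma-voom the same share and DESeq2 0.0328%. At an unadjusted p under 0.05 in edgeR there were 2 of 37, beside 5.78% of all genes. Slc1a3 was at 651, 565 and 546 CPM in cGAS-KO;HD, against 527, 471 and 465 CPM in HD, a log2 change of 0.27 ± 0.10 (adjusted p = 0.757). Emp1 was at 1.43, 1.70 and 1.44 CPM in cGAS-KO;HD, against 2.42, 2.27 and 2.02 CPM in HD, a log2 change of -0.55 ± 0.20 (adjusted p = 0.757). Neither gene overlapped between the groups, and 17.1% of all genes had no overlap there.

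A p above the threshold does not show equal levels, so intervals are given for members called in both knock-in comparisons, and for Vim, Gfap and Serpina3n. On the log2 scale, from 8 residual degrees of freedom, the 95% interval of the difference between cGAS-KO;HD and HD was -0.07 to 0.40 for Glul and -0.09 to 0.45 for Slc1a2. It was -0.29 to 0.30 for S100b and -0.27 to 0.30 for Cp. For Vim it was -0.42 to 0.44, for Gfap -0.61 to 0.61 and for Serpina3n -0.79 to 1.01. The HD libraries are shared with HD against WT. Of the other homeostatic members, the amino acid exchanger Slc7a10 and Fgfr3 had the smallest p, with log2 changes of -0.36 ± 0.18 and -0.34 ± 0.17, and of the reactive ones Lcn2 and Osmr, at 2.44 ± 1.58 and 0.42 ± 0.35 (adjusted p of 0.757 or above for all 4). The median was -0.01 over homeostatic and 0.01 over reactive members.

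In striatum without the knock-in, cGAS-KO against WT also gave 0 called members by edgeR, DESeq2 or limma-voom. Of all genes edgeR and limma-voom called 0% and DESeq2 0.0282%. At an unadjusted p under 0.05 in edgeR there were 6 of 37 members, beside 4.28% of all genes, all reactive and all lower in cGAS-KO. These were Gfap (-0.67 ± 0.27), Vim (-0.59 ± 0.19), Lcn2 (-5.09 ± 1.5), Serpina3n (-1.01 ± 0.40), Emp1 (-0.55 ± 0.20) and Aspg (-0.71 ± 0.30), each with an adjusted p of 0.919. All 12 reactive members were below 0, with a median of -0.51, beside 16 of 22 homeostatic members and a median of -0.10. When WT replicate 1 was left out the reactive median was -0.18, with 9 of 12 below 0, and the homeostatic median 0.01. Gfap was then at -0.18 ± 0.13, Vim at -0.28 ± 0.13, Lcn2 at -2.3 ± 1.29 and Serpina3n at -0.19 ± 0.10, each with an adjusted p of 0.999. Gfap had 198, 226 and 225 CPM in cGAS-KO, against 544, 250 and 237 CPM in WT, and Serpina3n 23.5, 23.5 and 28.2 CPM against 94.9, 30.1 and 26.7 CPM. Of the 37 members 5 had no overlap, all lower, where 8.79% of all genes had none. The cGAS-KO libraries were the reference for the double mutants, so these values and the reactive values of cGAS-KO;HD against cGAS-KO share libraries. Of homeostatic members Hepacam, Aldoc and the connexin Gjb6 had the smallest p, at -0.13 ± 0.08, -0.14 ± 0.10 and -0.17 ± 0.13.

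Whether the knock-in effect itself differed by cGAS genotype was tested as an interaction, and 0 of 37 members were called by edgeR, DESeq2 or limma-voom. Of all genes edgeR called 0.00469%, DESeq2 0.0141% and limma-voom 0%. At an unadjusted p under 0.05 in edgeR there were 2 of 37 members, beside 2.84% of all genes, namely Lcn2 and Vim, whose interaction was 0.60 ± 0.27. Serpina3n was next, at 1.12 ± 0.56. Both values were smaller without WT replicate 1, with Vim at 0.29 ± 0.17 and Serpina3n at 0.30 ± 0.13 (adjusted p of 1 for both). The standard errors were smaller as well, most of all that of Serpina3n. With 1 library left out, the interaction ran from 0.295 to 0.737 for Vim and from 0.297 to 1.43 for Serpina3n. Without both libraries that stood apart they were at 0.20 ± 0.14 and 0.39 ± 0.11, 0 members were called and 0.483% of all genes were. Of homeostatic members Slc1a3 (0.25 ± 0.14), Hepacam (0.20 ± 0.11) and F3 (0.15 ± 0.11) had the smallest p. With all libraries each of these had an adjusted p of 1. The test of cGAS loss averaged over both Htt genotypes also called 0 members by these tools, and 0% of all genes by edgeR and limma-voom and 0.0469% by DESeq2. Emp1 at -0.55 ± 0.14 and Aspg at -0.53 ± 0.21 were under 0.05 unadjusted, 2 of 37 members beside 8.63% of all genes, with an adjusted p of 0.564 for both. Vim was at -0.29 ± 0.13, Slc7a10 at -0.27 ± 0.13, Slc1a3 at 0.14 ± 0.07 and Fgfr3 at -0.23 ± 0.12, all short of the threshold. Leaving out WT replicate 1, Vim was at -0.14 ± 0.08, Slc7a10 at -0.16 ± 0.12, Emp1 at -0.46 ± 0.14 and Aspg at -0.47 ± 0.23. Leaving out cGAS-KO replicate 3 as well, Fgfr3 was at -0.11 ± 0.07, Slc7a10 at -0.08 ± 0.08, Vim at -0.09 ± 0.07 and Aspg at -0.31 ± 0.14.

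**Figure D5:**
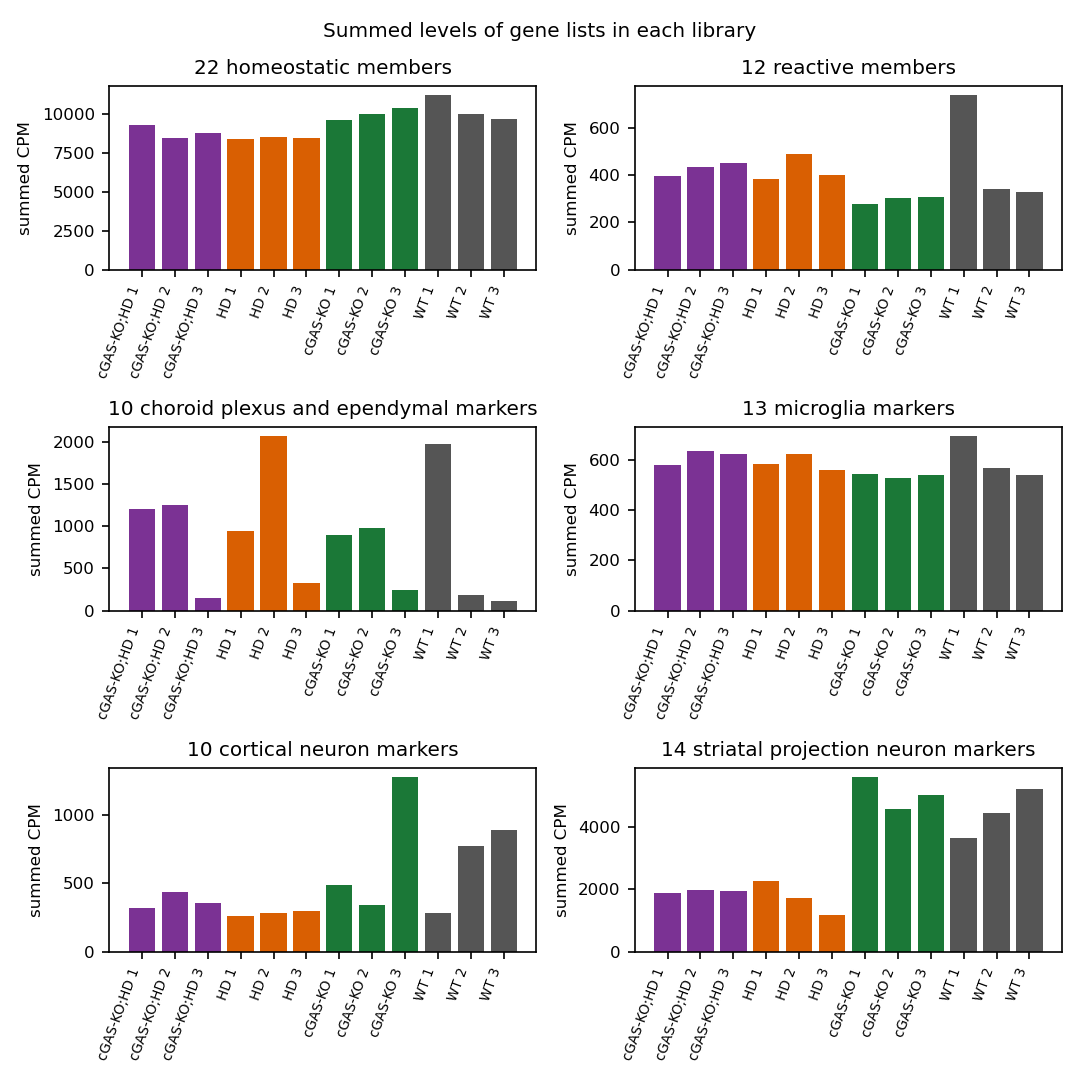
Bars show summed CPM of 6 gene lists in each library, in the group order cGAS-KO;HD, HD, cGAS-KO and WT. The homeostatic sum, dominated by Glul, Slc1a2 and Apoe, lies between 8447 and 9319 CPM in the knock-in libraries. In the other libraries it lies between 9647 and 11270 CPM. The reactive sum of WT replicate 1 (741 CPM) is above all others, while choroid plexus and cortical sums differ by library within each group.

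Summed over the class, homeostatic members had 9319, 8482 and 8784 CPM in cGAS-KO;HD, 8447, 8563 and 8480 CPM in HD, 9647, 10010 and 10400 CPM in cGAS-KO and 11270, 10010 and 9705 CPM in WT. The sum is dominated by Glul, Slc1a2 and Apoe, and in it the knock-in groups did not overlap the others. Glul and Slc1a2 were called lower in both knock-in comparisons, while Apoe was not called and its groups overlapped. The mean of log2 CPM, which weighs the 22 members alike, overlapped as well. It ran from 7.524 to 7.692 in knock-in libraries and from 7.508 to 7.922 in the others. Reactive members summed to 398, 433 and 449 CPM in cGAS-KO;HD, 385, 490 and 399 CPM in HD, 277, 303 and 307 CPM in cGAS-KO and 741, 343 and 327 CPM in WT, of which Gfap is the largest part. All 6 knock-in libraries were above 5 of the 6 others, the exception being WT replicate 1.

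Some members varied more between mice of a group than between groups. Agt, angiotensinogen, had 57.1, 38.6 and 61.0 CPM in cGAS-KO;HD, 60.6, 62.3 and 82.6 CPM in HD, 52.7, 89.2 and 13.4 CPM in cGAS-KO and 97.1, 60.9 and 39.2 CPM in WT. Thalamic, septal and pallidal neuron markers summed to 311 CPM in cGAS-KO replicate 3, where Agt was lowest. They summed to 838 and 829 CPM in cGAS-KO replicate 2 and WT replicate 1, where Agt was highest. Their own highest sums were in HD replicates 3 and 2 (1203 and 896 CPM), where Agt was at 82.6 and 62.3 CPM. The part of these markers in the Agt values was not tested. In cGAS-KO replicate 3, Fgfr3 was at 53.8 CPM, against 90.0 and 96.7 CPM in its group, and Aspg at 1.14 CPM, against 2.68 and 3.21 CPM. That library was the lowest of 12 for 7 homeostatic members and the highest for 2, Glul and Slc1a2. Sox9, by contrast, had a coefficient of variation of 1.28% to 10.8% within groups.

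Of the 3 members in neither class, none was called in any comparison. Sparc, a secreted collagen-binding protein, had 615, 439 and 519 CPM in cGAS-KO;HD, 530, 567 and 628 CPM in HD, 462, 648 and 285 CPM in cGAS-KO and 740, 482 and 369 CPM in WT. Its relative Sparcl1 averaged 2040 ± 169 CPM in cGAS-KO;HD, 2040 ± 153 in HD, 2290 ± 112 in cGAS-KO and 2290 ± 199 in WT (SD, n = 3 each), a log2 change of -0.16 ± 0.07 for the averaged knock-in (adjusted p = 0.148). Id3, a target of BMP signalling, had 12.0, 18.6 and 17.2 CPM in cGAS-KO;HD, 17.2, 23.3 and 22 CPM in HD, 19.0, 19.1 and 7.67 CPM in cGAS-KO and 17.7, 17.4 and 18.1 CPM in WT. The lowest Sparc and Id3 values were both in cGAS-KO replicate 3.

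The remaining homeostatic members, Gjb6, Apoe, the sodium pump subunit Atp1b2, Aldoc, Ntsr2, Ndrg2, the membrane protein Mlc1, Hepacam, Agt, Fgfr3 and Slc7a10, were called in no comparison with all libraries. In HD against WT their log2 changes ran from -0.27 (Ndrg2) to 0.12 (Slc7a10). In cGAS-KO;HD against cGAS-KO they ran from -0.27 (Fgfr3) to 0.21 (Hepacam).

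Beyond the members, 70 other astrocyte genes were examined, and 7 were called in HD against WT, all lower, where 4.1% of all genes were called. They included Crym (mu-crystallin, also made by striatal neurons), Mfge8 (a bridging protein for phagocytosis), Grm3 (a metabotropic glutamate receptor) and Htra1 (a secreted protease). Crym averaged 28.6 ± 4.15 CPM in HD and 52.5 ± 6.63 CPM in WT (SD, n = 3 each), a log2 change of -0.88 ± 0.16 (adjusted p = 0.0088). Grm3 averaged 60.7 ± 6.91 CPM in HD and 89.1 ± 11.1 CPM in WT, a log2 change of -0.55 ± 0.12 (adjusted p = 0.0204). In cGAS-KO;HD against cGAS-KO 6 were called (3.96% of all genes), again all lower, led by the chloride channel family member Ttyh1 (-0.42 ± 0.08, adjusted p = 0.0106), Crym (-0.82 ± 0.16, adjusted p = 0.012), the NMDA receptor subunit Grin2c (-0.55 ± 0.12, adjusted p = 0.0238) and the fatty acid hydroxylase Cyp4f15 (-0.58 ± 0.13, adjusted p = 0.0277). The median over the 70 genes was -0.06 in HD against WT and 0.00 in cGAS-KO;HD against cGAS-KO. Leaving WT replicate 1 out, 10 were called in HD against WT, 2 higher and 8 lower, beside 7.02% of all genes. Without that library and cGAS-KO replicate 3, 24 were called in HD against WT, 7 higher and 17 lower, where 16.5% of all genes were called, and 14 in cGAS-KO;HD against cGAS-KO, 2 higher and 12 lower, where 8.31% were.

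Of 44 other reactive astrocyte genes tested, 2 were called in HD against WT and 1 in cGAS-KO;HD against cGAS-KO, all higher. These shares are near those of all genes called, 4.1% and 3.96%. Il6st (gp130), the shared receptor of the interleukin 6 family and partner of Osmr, averaged 130 ± 4.24 CPM in HD and 106 ± 11.2 CPM in WT, a log2 change of 0.30 ± 0.08 (adjusted p = 0.0434). It averaged 128 ± 4.39 CPM in cGAS-KO;HD and 103 ± 0.878 CPM in cGAS-KO, a log2 change of 0.32 ± 0.08 (adjusted p = 0.0324). The matrix protein Tnc averaged 4.74 ± 1.83 CPM in HD and 2.25 ± 0.377 CPM in WT, a log2 change of 1.07 ± 0.27 (adjusted p = 0.0436). It averaged 2.53 ± 0.659 CPM in cGAS-KO;HD and 2.7 ± 0.266 CPM in cGAS-KO, where it was not called. In HD replicates 1, 2 and 3 it had 3.05, 4.49 and 6.68 CPM, the order of the thalamic, septal and pallidal marker sums there. The part of those markers in Tnc was not tested. Without WT replicate 1, 5 of the other reactive astrocyte genes were called in HD against WT, 3 higher and 2 lower, beside 7.02% of all genes. Without both libraries that stood apart, 9 were called there, 5 higher and 4 lower (16.5% of all genes), and 6 in cGAS-KO;HD against cGAS-KO, 4 higher and 2 lower (8.31% of all genes).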

How the data were processed

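Striatal poly(A) RNA of 12 mice was sequenced from directional libraries, per the labels' protocols. The authors deposited whole-number read counts per Ensembl gene. Aligner, build, annotation and strand setting were not given in the sources used here. Symbols, positions and exon lengths came from GENCODE M21 (GRCm38), which named 99.4% of the genes, and promoter windows came from RefSeq (GRCm38.p6, 250 bases before to 50 after the start).

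Genes were kept by filterByExpr (minimum count 10, minimum total 15). Group means were fitted to the 12 libraries together by the robust quasi-likelihood test of edgeR (TMM scaling, 8 residual degrees of freedom, common dispersion 0.0326), and a gene was called where its Benjamini-Hochberg adjusted p, over all 21309 genes, was under 0.05. The method was checked on simulated counts with the same spread for every gene and no library that stood apart. That check does not cover the weight of single libraries seen here. CPM are TMM-scaled, errors of CPM are SD and errors of log2 changes are SE. Groups came from the sample titles, which give separate mice, and no covariate was used. Replicates of a group differed by far more than sampling noise.

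The members, classes and lists were chosen with earlier results of these data known, and so was the pair of libraries left out. All 37 members are accounted for. Library values are given for members called with all libraries and for Gfap, Aldh1l1, Aqp4, Slc1a3, Gja1, Vim, Serpina3n and Sox9. Statistics are given for called members and up to 3 uncalled ones of each class with the smallest p. For the averaged knock-in most called members have a log2 change alone. Up to 4 called genes of each wider list are named. Values beyond this rule were chosen after they were seen. Alternatives were other scalings and filters, DESeq2's and limma-voom's tests, fits to only the groups compared, terms for replicate number or high Xist, and leaving out each library. Exons of Glul, Slc1a2 and Cp overlap other genes on the opposite strand over 116, 166 and 108 bases, and Serpina3n has close paralogs, so reads could be shared. The tools were Python 3.11.15 and matplotlib 3.10.9, with DESeq2 1.42.0, limma 3.58.1 and edgeR 4.0.16 in R 4.3.3.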

Additional observations from a re-analysis of the deposited data

How the results depend on the processing

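Depth was not limiting for most members, but Lcn2, Steap4 and Timp1 summed to at most 160 counts in any group of 3 libraries. The limits include 3 mice a group and the weight of single libraries. Leaving out 1 library gave 1 to 9 called members in HD against WT, 2 to 5 in cGAS-KO;HD against cGAS-KO and 5 to 10 for the averaged knock-in. The share of all genes called ran from 1.13% to 7.02%, from 1.46% to 4.97% and from 8.16% to 16.5%. No library left out gave a called member for the 4 other tests. Without WT replicate 1 and cGAS-KO replicate 3 together the counts of called members were 9, 10 and 13, beside 16.5%, 8.31% and 21.2% of all genes. A term for high Xist left 3 called members in cGAS-KO;HD against cGAS-KO, beside 3.02% of all genes.

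The reactive median in HD against WT ran between -0.455 and 0.197 with 1 library left out and was 0.20 without both. For the averaged knock-in it ran between -0.017 and 0.274, and was 0.372 without both. In cGAS-KO;HD against cGAS-KO it was 0.458 among genes with at least 1 CPM in 3 libraries, 0.193 with the compared groups alone, 0.423 with total counts, 0.244 with the Xist term and 0.173 with Sparc, Sparcl1 and Id3 added, and 0.296 to 0.356 with 1 library left out. Total counts in place of TMM moved the median of all genes by less than 0.1. The homeostatic median stayed below 0 in HD against WT in every fit run. With total counts it was 0.0162 in cGAS-KO;HD against cGAS-KO and 0.00996 for the averaged knock-in, and below 0 in the other fits of these.

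Among results tried under every setting, values turned direction for Gfap in HD against WT (0.283 without WT replicate 1, 0.287 without both, -0.406 to 0.283 over the libraries left out), for Serpina3n there (0.386, 0.39, and -0.736 to 0.386) and in the averaged knock-in (-0.00242 without WT replicate 2, and -0.0227 to 0.534 over all left out), and for Aldoc in cGAS-KO against WT (0.0152 without both). Without WT replicate 1, 8 of 37 members turned in HD against WT, 3 homeostatic and 5 reactive, among them Osmr, Steap4 and Timp1, and 5 for the averaged knock-in, Lcn2 among them. In cGAS-KO against WT 14 turned, in the interaction 11 and in averaged cGAS loss 9. Serpina3n was the only one of these called after turning. The cause was not tested. Glul, Slc1a2, S100b and Cp kept their direction in the 3 knock-in comparisons in every fit run.

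Without WT replicate 1, of 46 other reactive astrocyte genes listed 5 were called in HD against WT and 9 for the averaged knock-in. Of all genes 7.02% and 16.5% were called there. Without both libraries they were 9 in HD against WT, 12 for the average and 6 in the double mutants against cGAS-KO. Of 70 other astrocyte genes 24 were then called in HD against WT and 14 in the double mutants. In that fit 16.5% of all genes were called in HD against WT, 21.2% for the average and 8.31% in the double mutants. These settings for the wider lists were chosen after seeing the data.

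Replicate numbers did not pair the libraries. The deviations of same-numbered libraries correlated at -0.327 to 0.312 over 18 pairs, 2 of them over 0.1, and 2 of 12 libraries correlated best with their own number. With the replicate number as a block, 4 members were called in HD against WT, 4 in cGAS-KO;HD against cGAS-KO and 7 for the averaged knock-in, and all genes called were 507, 596 and 2313 in place of 873, 843 and 2816.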
